A study of Mus musculus with 28 samples.

Results

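The 8 genes described here are chromatin regulators tied to the removal of histones and to the acetylation that precedes it in spermatids: the bromodomain readers Brdt and Brd2, the acetyltransferase Kat5 and the enhancer of polycomb proteins Epc1 and Epc2 that work with it, the histone demethylase Kdm3a, the remodeller Chd5 and the chromodomain protein Cdyl. They were taken by symbol from the array's annotation, which gives them 16 of the 45101 probe sets, and they are 8 of the 18193 genes that have a probe set of their own. No measured value entered the rule that picked them, but they were chosen with earlier results of these data known. A probe set is a group of short probes read out as a single signal, an intensity in arbitrary units that cannot be set against that of another probe set.

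The arrays were hybridised with RNA from adult male C57BL/6 mice, either wild type (WT) or GRTH null (KO), in which Ddx25 is disrupted, the gene that encodes GRTH, a gonadotropin-regulated RNA helicase of the testis; the labels say no more about the allele. The design addresses which transcripts on testicular polysomes depend on this helicase. There were 10 groups: spermatocytes with 4 arrays per genotype, round spermatids with 3 per genotype, cells labelled as Leydig cells with 2 per genotype, total testicular polysome RNA with 3 per genotype, and RNA immunoprecipitated (IP) from WT polysomes, with 2 arrays for the antibody to GRTH and 2 for control IgG. Cells came from elutriation, polysomes from sucrose gradients, and the IP samples were labelled by a longer procedure than the rest.

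Spermatids replace nearly all of their histones, first with transition proteins and then with protamines. A wave of histone H4 acetylation comes before this exchange, the testis-specific reader BRDT binds the acetylated histones, and remodellers and demethylases prepare the chromatin and the genes of the incoming proteins. KAT5 (also called TIP60) and EPC1 sit in the NuA4 acetyltransferase complex, and mice that lack CHD5 or KDM3A, or carry a truncated BRDT, pack spermatid chromatin poorly.

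Ddx25 signal in KO was 4.87% of WT in polysome RNA, 20.7% in spermatocytes, 25.4% in round spermatids and 25.1% in the Leydig fraction. The Leydig fraction carried germ cell RNA: the 8 spermatocyte markers summed to 49022 to 49141 there in WT, against 51538 to 60704 in WT spermatocytes, while the 6 Leydig markers summed to 32033 to 32086 against 6475 to 7067. It is therefore called the Leydig fraction below, and a member's signal in it cannot be assigned to Leydig cells. Ratios of 3' to 5' actin signal lay between 1.41 and 2.09 on the arrays of cells and total polysomes and between 3.81 and 12.8 on the IP arrays. The deposited values of 4 polysome arrays (WT 1 and 2, KO 1 and 2) were unscaled and were rescaled here, and the free-text descriptions of WT polysome 1 and 2, KO polysome 1 and IgG IP 1 name another group than their titles, which were followed. No label ties the replicates to separate animals, so p-values measure the spread between these arrays, which may be technical. In RNA from many cells, fewer cells of a type and less RNA per cell cannot be told apart.

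Across the 4 comparisons of KO with WT, the brightest Cdyl probe set was lower in KO every time, by 2.98-fold in polysome RNA and by 1.45- to 1.51-fold in the cell fractions. In KO round spermatids it was the only member probe set called lower, while Kat5, Kdm3a, Epc1, Chd5 and Brd2 rose by 1.19- to 1.76-fold. Differences are given as log2 of KO over WT ± SE from limma, with p-values adjusted by Benjamini-Hochberg over all 17473 probe sets tested and a call at an adjusted p under 0.05. In polysome RNA 1 of the 15 member probe sets tested was called, and it was lower, beside 3.29% of all probe sets tested (3.03% lower). In spermatocytes 3 of 14 were called (1 higher, 2 lower; background 29.4%, 15.8% higher and 13.6% lower), in round spermatids 8 of 13 (7 higher, 1 lower; background 51.9%) and in the Leydig fraction 9 of 13 (2 higher, 7 lower; background 70.5%, 41.2% higher and 29.2% lower). The shares called in either direction lie near the background of the cell fraction comparisons, so these counts alone do not set the members apart. The median log2 difference of the members tested in round spermatids was 0.25, against 0.16 for all probe sets tested (0.05 under quantile normalization, the scaling that shifted it most), so a rise is read relative to that shift.

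**Figure D1:**
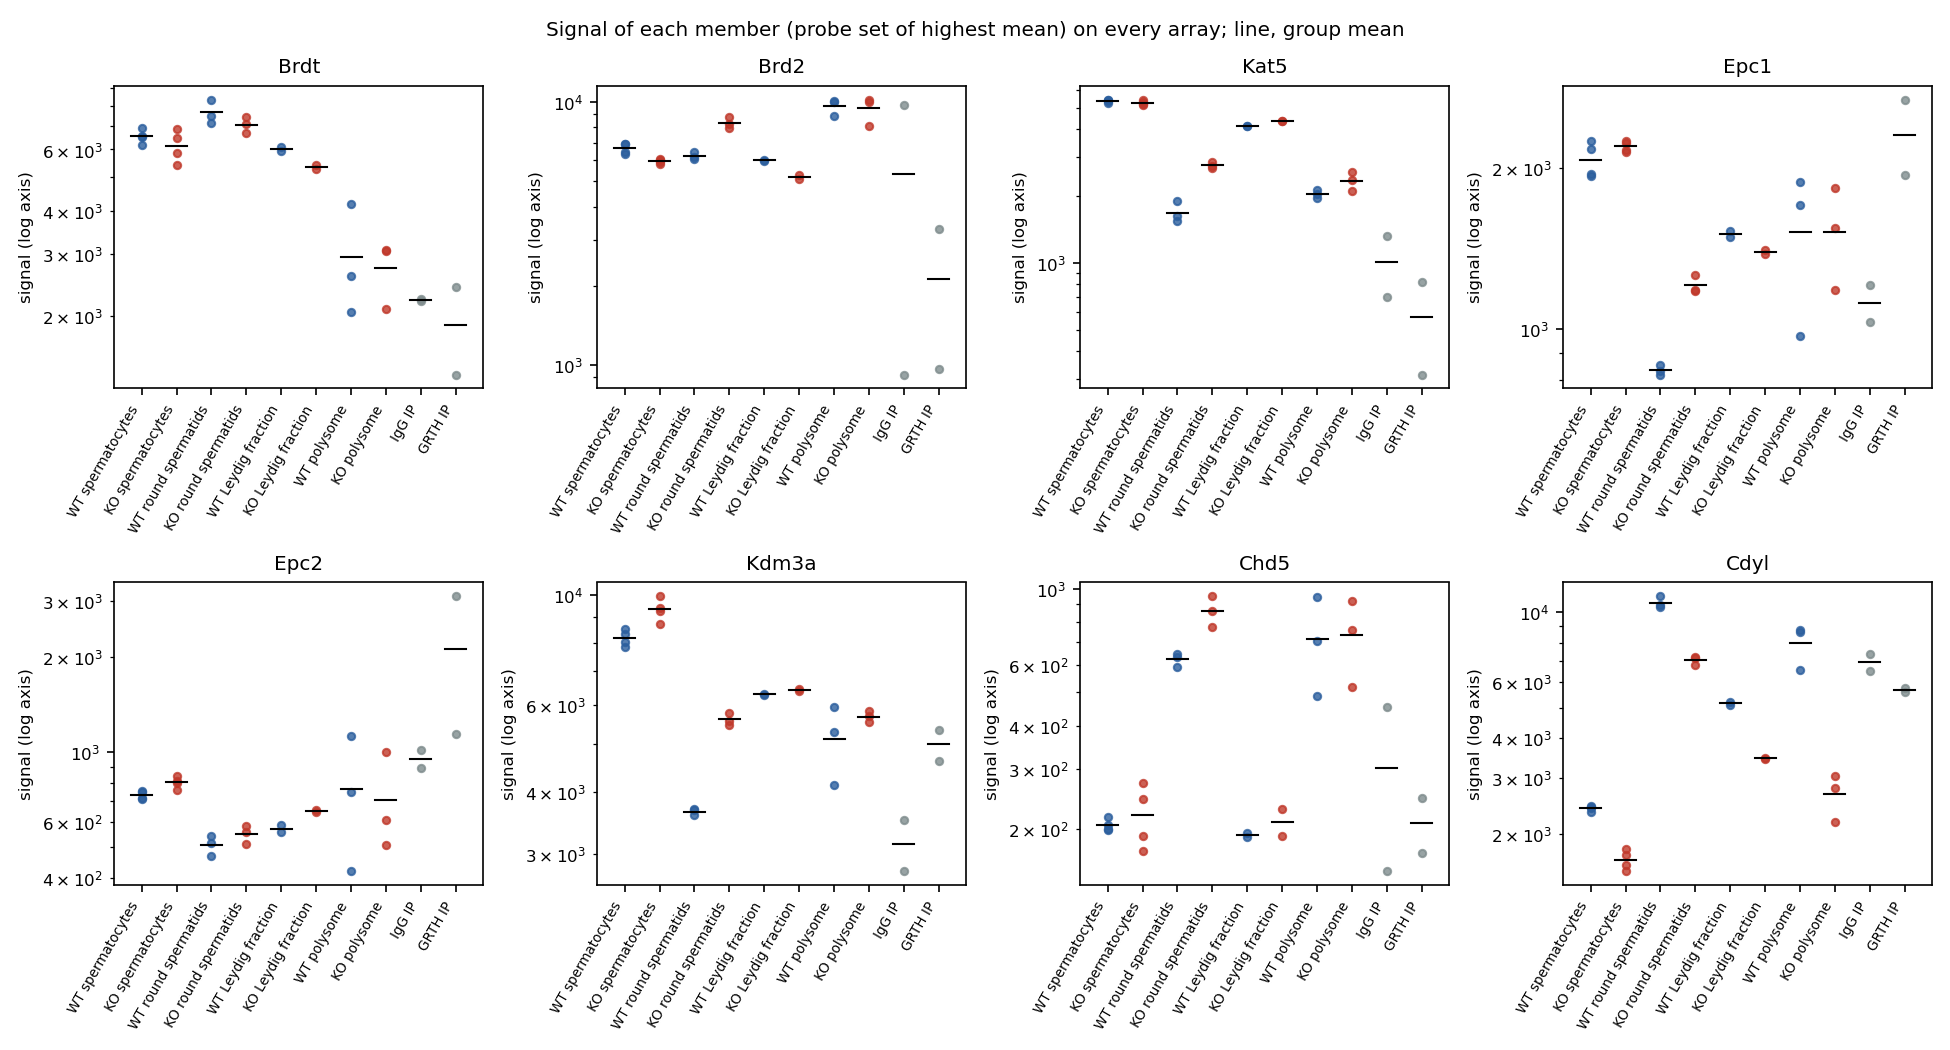
Signal (arbitrary units, log axis, scaled per array) of each member's brightest probe set on all 28 arrays; every point is an array, blue is WT, red is KO, grey is IP, and the line is the group mean. The 3 KO round spermatid arrays lie above the 3 WT arrays for Kat5, Epc1, Kdm3a, Chd5 and Brd2, and below them for Cdyl, where they read 6779 to 7200 against 10330.1 to 11186.

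**Figure D2:**
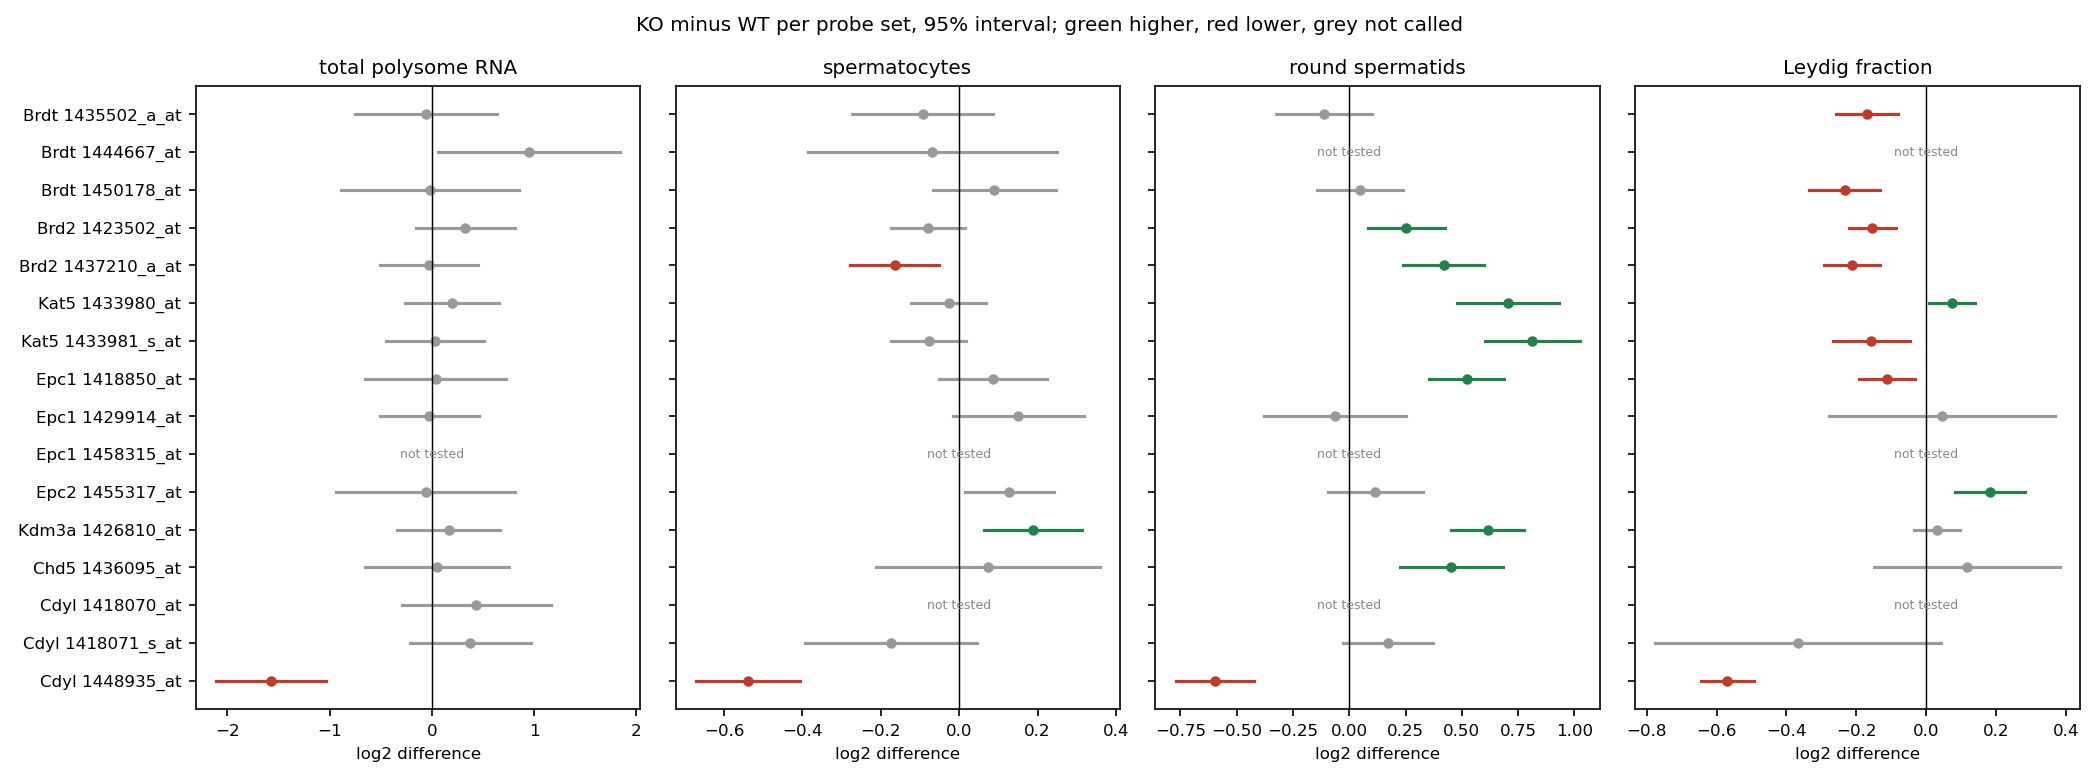
Log2 difference of KO minus WT for the 16 member probe sets in the 4 KO comparisons, with 95% intervals from limma; green is called higher, red called lower, grey not called, and each panel has its own axis. Cdyl 1448935_at is left of 0 in all 4 panels, and 7 probe sets are green in round spermatids.

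Promoter sequences are shown for a part of the members: Kat5, whose signal was higher in spermatocytes than in round spermatids, and Chd5 and Cdyl, higher in round spermatids. Kdm3a, which like Kat5 was higher in spermatocytes and rose in KO round spermatids, is not printed. Each runs from 250 bases before to 50 bases after the first listed start site (RefSeq, GRCm38.p6). Capitals mark the CRE half-site TGACG on either strand (CGTCA on the opposite strand), a motif bound by CREB and CREM, the latter a main activator of spermatid genes. The windows are chr4:152338401-152338700 on the plus strand for Chd5, chr19:5610045-5610344 on the minus strand for Kat5 and chr13:35741212-35741511 on the plus strand for Cdyl.
Chd5: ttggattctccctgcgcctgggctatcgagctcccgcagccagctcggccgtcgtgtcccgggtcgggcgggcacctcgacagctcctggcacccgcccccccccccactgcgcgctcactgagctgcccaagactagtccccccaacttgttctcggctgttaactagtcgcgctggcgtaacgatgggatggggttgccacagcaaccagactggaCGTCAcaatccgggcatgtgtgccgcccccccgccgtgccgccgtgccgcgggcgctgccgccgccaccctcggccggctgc
Kat5: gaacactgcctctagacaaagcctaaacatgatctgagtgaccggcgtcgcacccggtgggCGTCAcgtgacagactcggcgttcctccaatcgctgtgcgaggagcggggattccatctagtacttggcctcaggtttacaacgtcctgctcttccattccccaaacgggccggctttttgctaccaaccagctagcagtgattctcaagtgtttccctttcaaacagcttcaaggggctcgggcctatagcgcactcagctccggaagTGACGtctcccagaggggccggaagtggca
Cdyl: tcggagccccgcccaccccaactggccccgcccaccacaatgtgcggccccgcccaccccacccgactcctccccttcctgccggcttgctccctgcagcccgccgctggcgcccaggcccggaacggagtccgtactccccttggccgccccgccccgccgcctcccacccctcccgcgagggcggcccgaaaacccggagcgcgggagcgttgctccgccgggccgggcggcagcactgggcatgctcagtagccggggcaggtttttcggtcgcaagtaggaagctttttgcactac

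Chd5 has a half-site 32 bases before the start, and Kat5 has 2, at 189 bases before and 20 bases after it. Cdyl has none in this window, where the GC box GGGCGG occurs 7 times, counting both strands. The half-site occurs in 20.8% of the 32851 promoters listed, the full site TGACGTCA in 1.8%, CCAAT in 37.4% and GGGCGG in 35.7%. Listed windows were found for 7 of the 8 members (15 start sites), and none holds the full site. Brdt, Kdm3a, Epc2 and Cdyl have no half-site at any listed start site, so members that rose in KO round spermatids are found with and without it. A match is a string of letters and not a measured binding site, and which start site these cells use was not measured.

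Brdt encodes the testis-specific bromodomain protein that binds acetylated histone H4. Its brightest probe set, 1435502_a_at, read 6518, 6190.3, 6914 and 6567 on the 4 WT spermatocyte arrays and 5875, 5405, 6868 and 6478 on the 4 KO arrays. It read 7502, 7149 and 8336 in WT round spermatids and 7110.1, 6671 and 7445 in KO round spermatids. WT and KO overlapped in both cell types, and neither difference passed the test (spermatocytes -0.09 ± 0.08, adjusted p = 0.413; round spermatids -0.11 ± 0.09, adjusted p = 0.321, 95% interval -0.33 to 0.10). Polysome RNA read 2055, 2600.4 and 4179 in WT and 2093, 3078 and 3070 in KO, again overlapping (-0.06 ± 0.31, adjusted p = 0.948). In the Leydig fraction the KO arrays read 5256 and 5425 against 5933 and 6081 in WT and did not overlap (-0.17 ± 0.03, adjusted p = 0.0129). WT spermatocytes and the WT Leydig fraction, which has the germ cell markers given above, did not differ by a call for this probe set (0.12 ± 0.06, adjusted p = 0.112, 95% interval -0.02 to 0.27).

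The second Brdt probe set, 1450178_at, was not called in spermatocytes, round spermatids or polysome RNA, and was lower in the KO Leydig fraction (-0.23 ± 0.04, adjusted p = 0.00763). The third probe set, 1444667_at, which is dim in cells, read 43.3 to 144 in all cell fractions but 448, 359 and 751 in WT and 828, 655 and 1679.8 in KO polysome RNA. Each KO polysome array exceeded the WT array of the same number, although the groups overlapped. The difference of 0.95 ± 0.39 was not called (adjusted p = 0.286), and it was called once the replicate number was fitted as a block (adjusted p = 0.00735), a fit that raised the calls over all probe sets in polysome RNA from 575 to 2625. Probe sets 1435502_a_at and 1444667_at of Brdt thus gave different patterns, and the files do not say which transcript ends they read.

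Brd2, a bromodomain protein of the same family as Brdt that is found in most tissues, changed in opposite directions in the 2 germ cell fractions. Probe set 1437210_a_at read 6160.4, 6051 and 6457 in WT round spermatids and 8763, 8272 and 7949 in KO round spermatids. All 3 KO arrays were above all 3 WT arrays, and the rise was 1.34-fold (0.42 ± 0.08, adjusted p = 0.0039). In spermatocytes the same probe set read 6952, 6323, 6933 and 6473 in WT and 6081, 5889, 6015 and 5801 in KO. There the KO arrays were all below the WT arrays, by 1.12-fold (-0.16 ± 0.05, adjusted p = 0.0376). That small fall lost its call with the arrays centred on the median, with no filter on low signal, with all arrays in a single fit, with near-identical arrays averaged, and when any spermatocyte array but WT 2 was left out (adjusted p 0.0543 to 0.328). The difference between the KO effects in the 2 cell types was itself called (0.58 ± 0.08, adjusted p = 0.000146).

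Brd2 probe set 1423502_at also rose in KO round spermatids (0.25 ± 0.07, adjusted p = 0.0231), a call lost under 8 alternatives (leaving out WT 1, WT 2 or any KO array among them), and was not called in spermatocytes (-0.08 ± 0.04, adjusted p = 0.181). For this probe set, too, the KO effect differed between round spermatids and spermatocytes (0.33 ± 0.07, adjusted p = 0.00219), a call lost in a single fit over all arrays (adjusted p = 0.0661) and with near-identical arrays averaged (0.119). In polysome RNA 1437210_a_at read 10079, 10007 and 8824 in WT and 10199, 10026 and 8126 in KO, overlapping throughout (-0.03 ± 0.21, adjusted p = 0.954). Probe set 1423502_at read 3596, 4180.3 and 3109 in WT and 4705, 4476 and 4385 in KO polysome RNA. Here every KO array was above every WT array; the difference was not called (0.33 ± 0.21, adjusted p = 0.484), and was called in a single fit over all arrays (adjusted p = 0.0113). In the KO Leydig fraction both probe sets were lower (-0.21 for 1437210_a_at and -0.15 for 1423502_at). Under quantile normalization these values shrank to -0.06 and -0.07 and both calls were lost (adjusted p = 0.1 and 0.0525), as they were in a single fit.

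Kat5 encodes the TIP60 acetyltransferase, which acetylates histone H4, and its 2 probe sets fell steeply from spermatocytes to round spermatids. Probe set 1433980_at read 5427, 5348, 5419 and 5266 in WT spermatocytes and 1548, 1616 and 1889 in WT round spermatids. The round spermatid level was 3.18-fold lower with no overlap (-1.67 ± 0.08, adjusted p = 2.92e-07). KO spermatocytes read 5419, 5203, 5322 and 5117, overlapping WT (-0.03 ± 0.04, adjusted p = 0.672), whereas KO round spermatids read 2679, 2718 and 2840.4. All 3 KO round spermatid arrays were above all 3 WT arrays, by 1.63-fold (0.70 ± 0.09, adjusted p = 0.00126). Probe set 1433981_s_at gave 0.81 ± 0.09, adjusted p = 0.000576 in the same comparison; its suffix means that its probes may match transcripts of more than 1 gene.

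Kat5 was not called in KO spermatocytes with either probe set (-0.03 and -0.08), and the KO effect in round spermatids differed from that in spermatocytes by 0.73 ± 0.09 for 1433980_at (adjusted p = 7.95e-05) and 0.89 ± 0.09 for 1433981_s_at (adjusted p = 1.45e-05). Kat5 in KO round spermatids still lay below KO spermatocytes, by 1.91-fold (-0.94 ± 0.05, adjusted p = 1.09e-06). Polysome RNA read 1951, 2117 and 2044 in WT and 2554, 2366 and 2109 in KO, which overlapped only through KO 3, and the difference was not called (0.20 ± 0.20, adjusted p = 0.666). In the Leydig fraction the 2 probe sets disagreed (0.07 for 1433980_at, -0.16 for 1433981_s_at), and centring on the median turned the first to -0.10 (adjusted p = 0.0262).

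Epc1 encodes a scaffold subunit of the NuA4 complex that carries KAT5. Probe set 1418850_at read 819.5, 856 and 834 in WT round spermatids and 1184, 1178 and 1262 in KO round spermatids. The KO arrays were all higher, by 1.44-fold (0.52 ± 0.07, adjusted p = 0.00129). Spermatocytes read 1936, 1952, 2248 and 2171 in WT and 2254, 2148, 2167 and 2233 in KO and overlapped (0.09 ± 0.06, adjusted p = 0.327). The difference of the 2 KO effects was 0.44 ± 0.09 (adjusted p = 0.00197), a call lost under quantile normalization (value 0.17, adjusted p = 0.122), in a single fit over all arrays and with near-identical arrays averaged. Like Kat5, Epc1 was lower in WT round spermatids than in WT spermatocytes, by 2.45-fold (-1.29 ± 0.07, adjusted p = 8.8e-07). Polysome RNA read 1704, 967 and 1881 in WT and 1546, 1180.2 and 1836 in KO, with array 2 the lowest of each genotype and no call (0.04 ± 0.30, adjusted p = 0.966).

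The second Epc1 probe set, 1429914_at, did not show the rise in round spermatids (-0.06 ± 0.13, adjusted p = 0.712, 95% interval -0.38 to 0.25), an interval that excludes the 0.52 of 1418850_at. The third, 1458315_at, read 0.886 to 50.4 over the 28 arrays and was under the signal filter in every comparison. Epc2, the paralogue of Epc1, read 514, 543 and 469 in WT round spermatids and 514, 582 and 559 in KO. These overlapped and were not called (0.11 ± 0.09, adjusted p = 0.314). Spermatocytes read 718, 709, 747 and 755 in WT and 809, 842, 758 and 796 in KO, all KO arrays above WT, and the difference missed the threshold (0.13 ± 0.05, adjusted p = 0.0876). Epc2 fell between WT spermatocytes and WT round spermatids (-0.51 ± 0.07, adjusted p = 0.000171), a call lost under quantile normalization (value -0.10). Its rise in the KO Leydig fraction (0.18 ± 0.03, adjusted p = 0.0141) shrank to 0.01 when arrays were centred on the median.

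Kdm3a encodes a demethylase of histone H3 lysine 9 that is known to be needed for transcription of transition protein and protamine genes. Its single probe set, 1426810_at, read 3586, 3674 and 3694 in WT round spermatids and 5777, 5569.6 and 5461 in KO round spermatids. The groups were far apart, with KO 1.53-fold higher (0.62 ± 0.07, adjusted p = 0.00061). In spermatocytes it read 8542, 8014, 8330.3 and 7854 in WT and 9923, 9417, 9285 and 8722 in KO. The KO arrays were all above the WT arrays, by 1.14-fold (0.19 ± 0.06, adjusted p = 0.0319). This smaller rise lost its call with median centring, no filter, a single fit or averaged near-identical arrays, and when any spermatocyte array but WT 1 or KO 4 was left out (adjusted p 0.0563 to 0.297).

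The KO effect on Kdm3a was larger in round spermatids than in spermatocytes (0.43 ± 0.08, adjusted p = 0.00118), which was not called with near-identical arrays averaged (adjusted p = 0.0815). Kdm3a fell from WT spermatocytes to WT round spermatids by 2.24-fold (-1.16 ± 0.06, adjusted p = 4.57e-07). Polysome RNA read 5279, 4134 and 5945 in WT and 5526, 5824 and 5681 in KO. The KO arrays lay within the WT range and the difference was not called (0.16 ± 0.22, adjusted p = 0.753). In the Leydig fraction Kdm3a was not called as scaled here (0.03 ± 0.02), was lower under median centring (-0.14) and higher under quantile normalization (0.20).

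Chd5 encodes a chromodomain helicase of the NuRD type whose loss in mice leaves histones in spermatids. Probe set 1436095_at read 633, 644 and 592 in WT round spermatids and 860, 951 and 774 in KO round spermatids. Every KO array was higher than every WT array, by 1.37-fold (0.45 ± 0.10, adjusted p = 0.00756). The call was lost under quantile normalization (value 0.24, adjusted p = 0.0903), in a single fit over all arrays (0.0863) and with near-identical arrays averaged (0.0579). WT spermatocytes read 218, 206, 199.6 and 200 and KO spermatocytes 245, 272, 173 and 192. These overlapped (0.07 ± 0.13, adjusted p = 0.7), and WT round spermatids stood 2.88-fold above WT spermatocytes (1.53 ± 0.06, adjusted p = 1.56e-07). Chd5 in polysome RNA read 945, 489 and 703 in WT and 922, 517 and 760 in KO, with array 2 lowest in both genotypes and no call (0.05 ± 0.31, adjusted p = 0.953).

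Cdyl encodes a chromodomain corepressor that also limits histone crotonylation in spermatids. Probe set 1448935_at read 6545, 8777 and 8641 in WT polysome RNA and 2787, 3043 and 2183 in KO polysome RNA. The highest KO array was below the lowest WT array, and KO was 2.98-fold lower (-1.58 ± 0.24, adjusted p = 0.00744). The call held when any polysome array was left out, was lost when the deposited unscaled values were used (value -1.95), and was lost without WT polysome 1 and 2 and KO polysome 1, the arrays whose descriptions conflict (value -1.74, adjusted p = 0.116).

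Cdyl 1448935_at was lower in KO in the cell fractions as well. It read 2355, 2451, 2432 and 2422 in WT spermatocytes and 1529, 1599.6, 1718 and 1793 in KO spermatocytes (1.45-fold lower; -0.54 ± 0.06, adjusted p = 0.000252). It read 11186, 10506 and 10330.1 in WT round spermatids and 7200, 6779 and 7172 in KO round spermatids (1.51-fold lower; -0.60 ± 0.07, adjusted p = 0.000902). In the Leydig fraction it read 5090.5 and 5213 in WT and 3477 and 3457 in KO (1.48-fold lower; -0.57 ± 0.03, adjusted p = 0.00045). WT and KO arrays did not overlap in any of the 3 fractions, and the SDs of WT spermatocytes and WT round spermatids were 42 and 452. Averaging near-identical arrays took the spermatocyte comparison just past the threshold (adjusted p = 0.0508). Spermatid markers fell in KO spermatocytes too: 9 of 9 elongating spermatid markers (sums 65057 to 72452 against 112457 to 141075) and 6 of 7 round spermatid markers (25509 to 27134 against 32051 to 33064) were lower, and their part in the Cdyl difference was not tested. The KO effects on Cdyl in round spermatids and spermatocytes did not differ by a call (-0.06 ± 0.09, 95% interval -0.25 to 0.13), but under quantile normalization that difference became 0.23 (adjusted p = 0.0228).

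The fall of Cdyl in polysome RNA differed from that in round spermatids by -0.98 ± 0.23, which missed the threshold (adjusted p = 0.0745). It passed with median centring, quantile normalization, 1 probe set per gene, a single fit, or without the arrays of conflicting description (adjusted p 0.000863 to 0.0419). By limma 0 of 15 member probe sets were called in this difference between comparisons (4 at an unadjusted p under 0.05; background 0.961%). The comparison shares no array between its polysome and round spermatid parts. Total polysome RNA came from whole testes, and 8 of 9 elongating spermatid markers were lower there in KO (sums of 26174 to 50533 against 190079 to 398841). Of 7 round spermatid markers 2 were lower (sums of 28803 to 34428 against 44873 to 62833). Of 6 Leydig markers 0 were called, with a median log2 difference of 0.96. The part of these markers in the Cdyl difference was not tested.

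The other Cdyl probe sets did not show the fall in polysome RNA or round spermatids, and 1418071_s_at was not called in spermatocytes (-0.17 ± 0.10, adjusted p = 0.211) or the Leydig fraction (-0.37 ± 0.14, adjusted p = 0.0884). Probe set 1418071_s_at read 559, 440.1 and 370.5 in WT polysome RNA and 752, 468 and 579.8 in KO, overlapping, with a difference of 0.38 ± 0.26 (adjusted p = 0.509, 95% interval -0.21 to 0.96). In round spermatids it read 211, 193 and 222 in WT and 222, 241 and 247 in KO (0.17 ± 0.08, adjusted p = 0.13). The interval in polysome RNA lies wholly above the -1.58 of 1448935_at, so the 2 probe sets differ in what they report. As its suffix means, the probes of 1418071_s_at may match transcripts of more than 1 gene. Probe set 1418070_at was under the filter in the cell fractions and was not called in polysome RNA (0.43 ± 0.32, adjusted p = 0.535). In the Leydig fraction it read 29.8 and 38.1 in WT and 77.5 and 79.6 in KO, higher in KO with no overlap and opposite to 1448935_at, though untested at this low signal; in germ cells it read 31.4 to 89.8, with WT and KO overlapping in each cell type. The sources used here do not say which Cdyl transcripts each probe set reads, and the lower Cdyl signal in KO rests on 1448935_at.

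**Figure D3:**
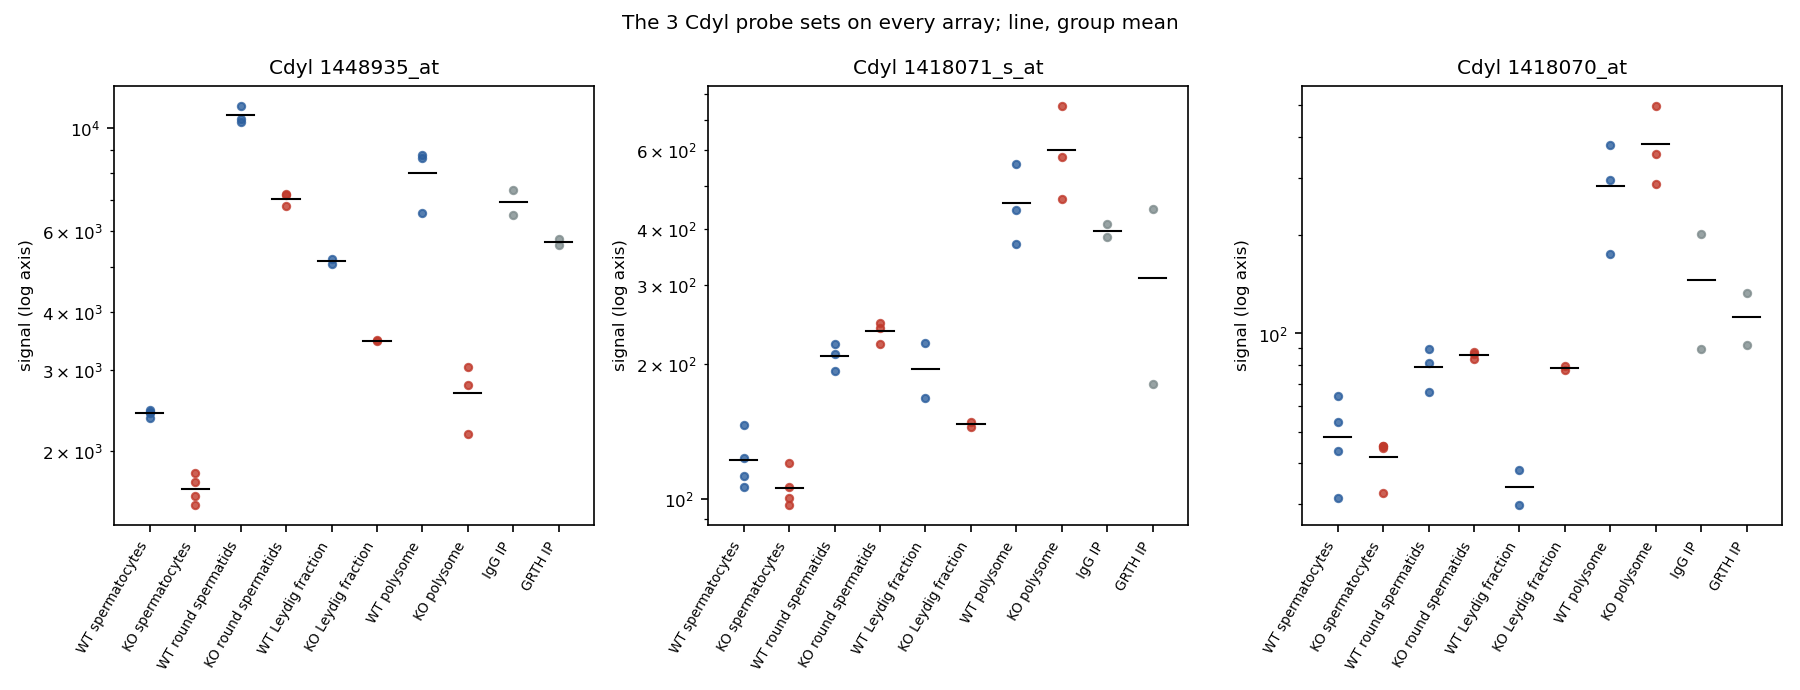
Signal (arbitrary units, log axis) of the 3 Cdyl probe sets on every array, with the group mean as a line; blue is WT, red KO, grey IP. The left panel (1448935_at) has KO below WT in every fraction, whereas KO polysome means in the other panels lie above the WT means.

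From spermatocytes to round spermatids the members split by gene, except Brdt, whose probe sets were called in both directions. In WT 11 of 14 probe sets tested were called (background 82.7%, 32.7% higher and 50% lower). The 4 that were higher in round spermatids were Cdyl 1448935_at and 1418071_s_at, Chd5 and Brdt 1435502_a_at. The 7 that were lower were both probe sets of Kat5, Epc1 1418850_at and 1429914_at, Kdm3a, Epc2 and Brdt 1444667_at (-0.98 ± 0.12, adjusted p = 8.03e-05). Cdyl 1448935_at rose the most of these, by 4.4-fold (2.14 ± 0.06, adjusted p = 3.38e-08), and Cdyl 1418071_s_at rose by 1.63-fold (0.71 ± 0.11, adjusted p = 0.000328). The rise of Brdt 1435502_a_at was small (0.22 ± 0.08, adjusted p = 0.0234) and turned to -0.08 under quantile normalization; the call was also lost without WT spermatocytes 2 or WT round spermatids 3. The members' stage differences are read relative to the median of all probe sets tested, which was -0.26 as scaled here, -0.44 with median centring and -0.13 with quantile normalization.

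In KO 12 of 14 were called between the same stages (background 80.6%, 35.4% higher and 45.1% lower), 5 higher and 7 lower; these arrays also enter the KO comparisons above. The stage difference kept its sign in KO for Cdyl (2.08), Chd5 (1.91), Kat5 (-0.94), Epc1 (-0.86), Kdm3a (-0.73) and Epc2 (-0.53). Brd2, which was not called between stages in WT (-0.10 ± 0.07, adjusted p = 0.189), was higher in KO round spermatids than in KO spermatocytes (0.48 ± 0.06, adjusted p = 8.39e-05). In WT the value for Brd2 became -0.28 with median centring and -0.38 with quantile normalization, both called lower. Brdt 1435502_a_at missed the threshold in KO (0.20 ± 0.09, adjusted p = 0.0718) and passed it with the replicate number as a block (adjusted p = 0.0304), though not all numbers paired between stages.

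The KO effect differed between round spermatids and spermatocytes for 6 of 14 member probe sets, all more positive in round spermatids (background 37.9%, or 27.4% in that direction). They are the 2 probe sets each of Kat5 and Brd2, Epc1 1418850_at and Kdm3a. This difference is built from the arrays of the KO and stage comparisons and adds no independent sample. Over all probe sets, 4781 of these differences were higher and 1836 lower, and under quantile normalization 3773 and 2713. In the KO round spermatid comparison itself 6166 probe sets were higher and 2902 lower, and under quantile normalization 4643 and 3795. The members that rose are thus in the direction that most called probe sets took (35.3% of all tested were higher, 16.6% lower).

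Markers of other cell types moved in the same comparison. In KO round spermatids the 7 round spermatid markers summed to 70702 to 76639 against 97534 to 114482 in WT, and 4 of 7 were lower. The 9 elongating spermatid markers summed to 174787 to 223206 against 263642 to 369049, with 8 lower. Of 8 spermatocyte markers 4 were higher and 1 lower, with a median log2 difference of 0.42. Their sums overlapped (50510.4 to 56440.1 against 50256 to 60571), but a sum is weighted towards the brightest markers. The 6 spermatogonial markers summed to 3280.2 to 3569 against 2239 to 2552, with 4 higher. Of the other lists, 4 of 5 Leydig markers tested were higher (sums 1321 to 1528 against 978 to 1015) and 3 of 3 Sertoli markers tested lower. Kat5, Epc1 and Kdm3a, which rose in this comparison, are higher in spermatocytes than in round spermatids, and Chd5, which also rose, is lower there. The part of these markers in the members' differences was not tested.

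**Figure D4:**
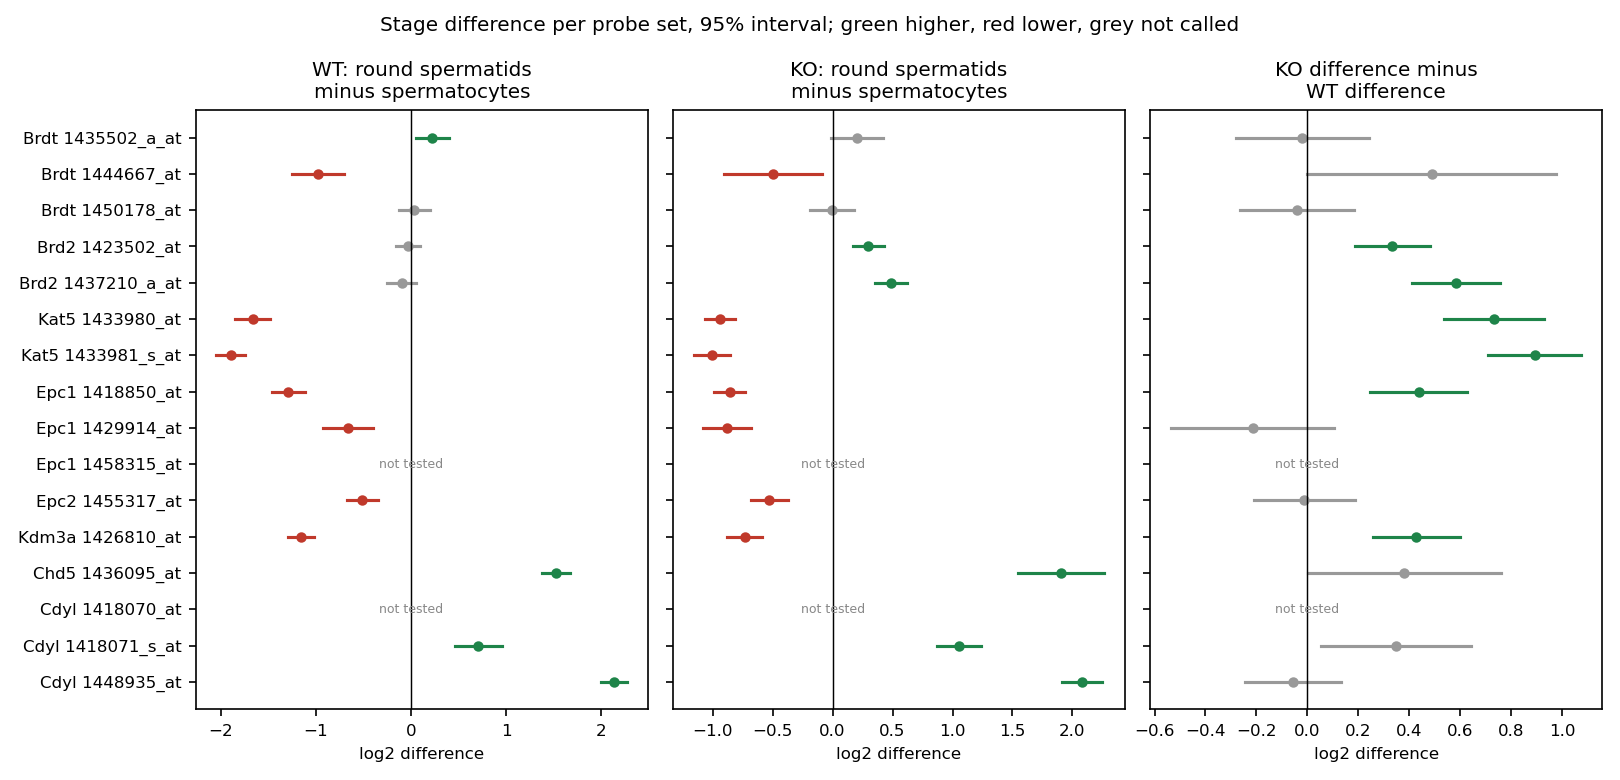
Log2 difference of round spermatids minus spermatocytes in WT (left) and KO (centre), and the KO difference minus the WT difference (right), for each member probe set with 95% intervals from limma; green is called higher, red lower, grey not called, and axes differ between panels. Kat5, Epc1 1418850_at and Kdm3a fall between stages in both genotypes and are right of 0 in the right panel.

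The order of the groups differed between members. For Cdyl 1448935_at WT round spermatids were highest and did not overlap the next group, WT polysome RNA, and KO spermatocytes were lowest, below WT spermatocytes without overlap. For Kat5 1433980_at the spermatocyte groups of both genotypes were highest and overlapped each other, followed without overlap by the KO and WT Leydig fraction and then KO round spermatids, and the IP groups were lowest. Kdm3a was highest in KO spermatocytes, then WT spermatocytes, with no overlap, and lowest in IgG IP, with WT round spermatids next above without overlap. Chd5 was highest in KO round spermatids, which overlapped polysome RNA of both genotypes, and lowest in the WT Leydig fraction. Brdt 1435502_a_at formed a chain of overlapping groups from WT round spermatids down to the WT Leydig fraction, and polysome and IP RNA lay below all cell fractions. Brd2 1437210_a_at was highest in polysome RNA, where it overlapped KO round spermatids, whereas 1423502_at was highest in KO round spermatids, followed by KO polysome RNA, which overlapped them, and its mean in WT polysome RNA lay below those of spermatocytes of both genotypes, with overlapping arrays. The IgG IP arrays of 1437210_a_at (919 and 9743) were too far apart for any order.

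In WT 11 of 14 member probe sets were called between spermatocytes and the Leydig fraction (9 higher in spermatocytes, 2 lower; background 64.4%, 41.8% higher and 22.7% lower), and 9 of 13 between round spermatids and the Leydig fraction (5 higher in round spermatids, 4 lower; background 74.3%, 33.1% higher and 41.2% lower). Cdyl 1448935_at in the Leydig fraction lay between the 2 germ cell groups, 2.13-fold above spermatocytes and 2.07-fold below round spermatids. Kat5 1433980_at did the same in the opposite order (0.37 for spermatocytes minus Leydig fraction, -1.29 for round spermatids minus Leydig fraction). In the KO Leydig fraction all 6 Leydig markers were higher (sums 59019 to 59824 against 32033 to 32086) and all 9 elongating spermatid markers lower (109011 to 111189.5 against 156880.3 to 158731), and their part in the member calls there was not tested. Apart from Cdyl 1448935_at, each of the 9 member calls in the KO Leydig fraction was lost under at least 1 alternative. Averaging near-identical arrays was not run there, as each genotype has only 2 arrays, although these lay close together (SD of their log2 difference 0.29 in WT and 0.26 in KO). Under median centring the split of member calls went from 2 higher and 7 lower to 0 and 10, and that of all probe sets from 7206 and 5109 to 4844 and 8271, while the median of all probe sets moved from 0.06 to -0.12; under quantile normalization all probe sets gave 5485 and 6624.

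In the immunoprecipitates, which ask what RNA GRTH binds, no member was called against IgG: limma called 0 of 15 member probe sets (0 at an unadjusted p under 0.05) and 0 of all 17473 (498 at an unadjusted p under 0.05), a background of 0%. Epc1 1418850_at read 2690.3 and 1939 with GRTH antibody and 1028 and 1209 with IgG. Epc2 read 3112 and 1137 with the antibody and 893 and 1015 with IgG. Kdm3a read 4628 and 5343 with the antibody and 2768 and 3504 with IgG. In these 3 the antibody arrays lay above the IgG arrays, with differences of 1.02 ± 0.65, 0.97 ± 0.72 and 0.67 ± 0.64 (each adjusted p = 0.999). Cdyl 1448935_at read 5757 and 5599.9 with GRTH antibody and 7367 and 6506 with IgG, so its antibody arrays lay below (-0.29 ± 0.63). With 2 arrays per group such separation often arises by chance. How often it occurred over all probe sets was not counted, so it is not read as binding or its lack. With all 28 arrays in a single fit, Epc1 (adjusted p = 0.00385) and Kdm3a (0.00516) were called higher and Kat5 1433980_at lower (0.0237), a fit that assumes the IP arrays vary no more than the others. The 95% interval for Cdyl, -1.73 to 1.16, spans both directions by more than the measured difference, as 2 arrays per group were compared. Median centring moved the median of all probe sets in this comparison from 0.06 to -0.33.

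Other chromatin genes were examined as lists, with each gene read by its brightest probe set. In KO round spermatids 19 of 24 other bromodomain genes were higher and 1 lower (median 0.57), beside 53.9% of all genes called in either direction, 35% higher, and a median of all genes of 0.14. Examples were Brpf3, a scaffold of acetyltransferase complexes (1.25 ± 0.12, adjusted p = 0.000345), Baz1a, a remodeller subunit (0.81 ± 0.08, adjusted p = 0.000447), and Bptf, the large subunit of the NURF remodeller (0.62 ± 0.07, adjusted p = 0.000639). Of the histone demethylases 12 of 18 were higher and 0 lower (median 0.54), among them Kdm4d (0.78) and Phf2 (1.15), which act on histone H3 lysine 9 as Kdm3a does, and Kdm2a (1.24), a demethylase that binds CpG islands. In WT round spermatids against WT spermatocytes 17 of 22 bromodomain genes were lower and 4 higher (median -0.57). Of 18 demethylases 10 were lower and 6 higher (median -0.69). Of all genes 84% were called, 37.8% higher and 46.2% lower, with a median of -0.12. The demethylase counts lie near these shares. Of the 8 spermatocyte markers given above, 4 were higher and 1 lower in KO round spermatids (median 0.42), although their sums overlapped those in WT. In WT these sums also overlapped between spermatocytes (51538 to 60704) and round spermatids (50256 to 60571). The part of these markers in the list counts was not tested.

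The counts in KO round spermatids below are read beside those of all genes, 35% higher and 19% lower (median 0.14). Of the other NuA4 subunits, the partners of Kat5, Epc1 and Epc2, 9 of 16 were higher in KO round spermatids and 0 lower (median 0.28). Of these subunits 11 of 16 were lower in WT round spermatids than in WT spermatocytes (background 46.2% lower). In KO round spermatids the difference was 0.88 for Brd8, its bromodomain subunit, and 0.47 for Dmap1, a partner of DNA methyltransferase. Other acetyltransferases were 6 higher and 2 lower of 14, and deacetylases 6 higher and 0 lower of 12, with Sirt2, a tubulin and histone deacetylase, at 1.13. Of the other CHD remodellers 3 of 6 were higher, including Chd4, the NuRD remodeller (0.72). Among chromodomain proteins and methyl-lysine writers 11 were higher and 2 lower of 20; Suv39h2, the testis H3 lysine 9 methyltransferase, was lower (-0.93) and Setdb1, which writes the same mark, higher (0.76). Histone chaperones were 6 higher and 0 lower of 14, with a median of 0.16 that was near that of all genes. Among them Nap1l1, a nucleosome assembly protein, was at 1.17. Ubiquitination and degradation genes were 9 higher and 1 lower of 21, with Ube2b, a ubiquitin-conjugating enzyme of spermatids, at -0.71.

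Transcripts of the proteins that replace histones went the other way. Transition protein and protamine genes are also among the 9 elongating spermatid markers. Of these markers 8 were lower in KO round spermatids and 8 in KO polysome RNA, and all 9 in KO spermatocytes and the KO Leydig fraction. The part of that fall in the counts below was not tested. Of the transition proteins, protamines, testis histone variants and related genes 9 of 14 were lower in KO round spermatids and 0 higher (median -0.56; background 19% lower). In KO spermatocytes 11 of 14 were lower (median -0.61; background 31.5%, 15.1% lower). In the KO Leydig fraction 12 of 14 were lower (background 72.4%, 32.9% lower), and in KO polysome RNA 10 of 13 (median -2.59; background 4.41%, 4.19% lower). Prm3, an acidic protein encoded in the protamine gene cluster, was at -3.50 ± 0.29, adjusted p = 0.0012 in polysome RNA and -1.24 in round spermatids, and H2al2a, a histone variant that enters spermatid chromatin with the transition proteins, was at -3.38 ± 0.29, adjusted p = 0.0012 in polysome RNA. In polysome RNA limma called 0 genes in each of the 9 lists of chromatin modifiers and chaperones. At an unadjusted p under 0.05 the counts ran from 0 to 3 a list. This fit leaves out the replicate block, which raised the calls over all probe sets in polysome RNA, and no list counts with the block are given. In spermatocytes 6 of 22 bromodomain genes were higher and 0 lower (background 16.4% higher), and 3 of 16 NuA4 subunits were called.

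**Figure D5:**
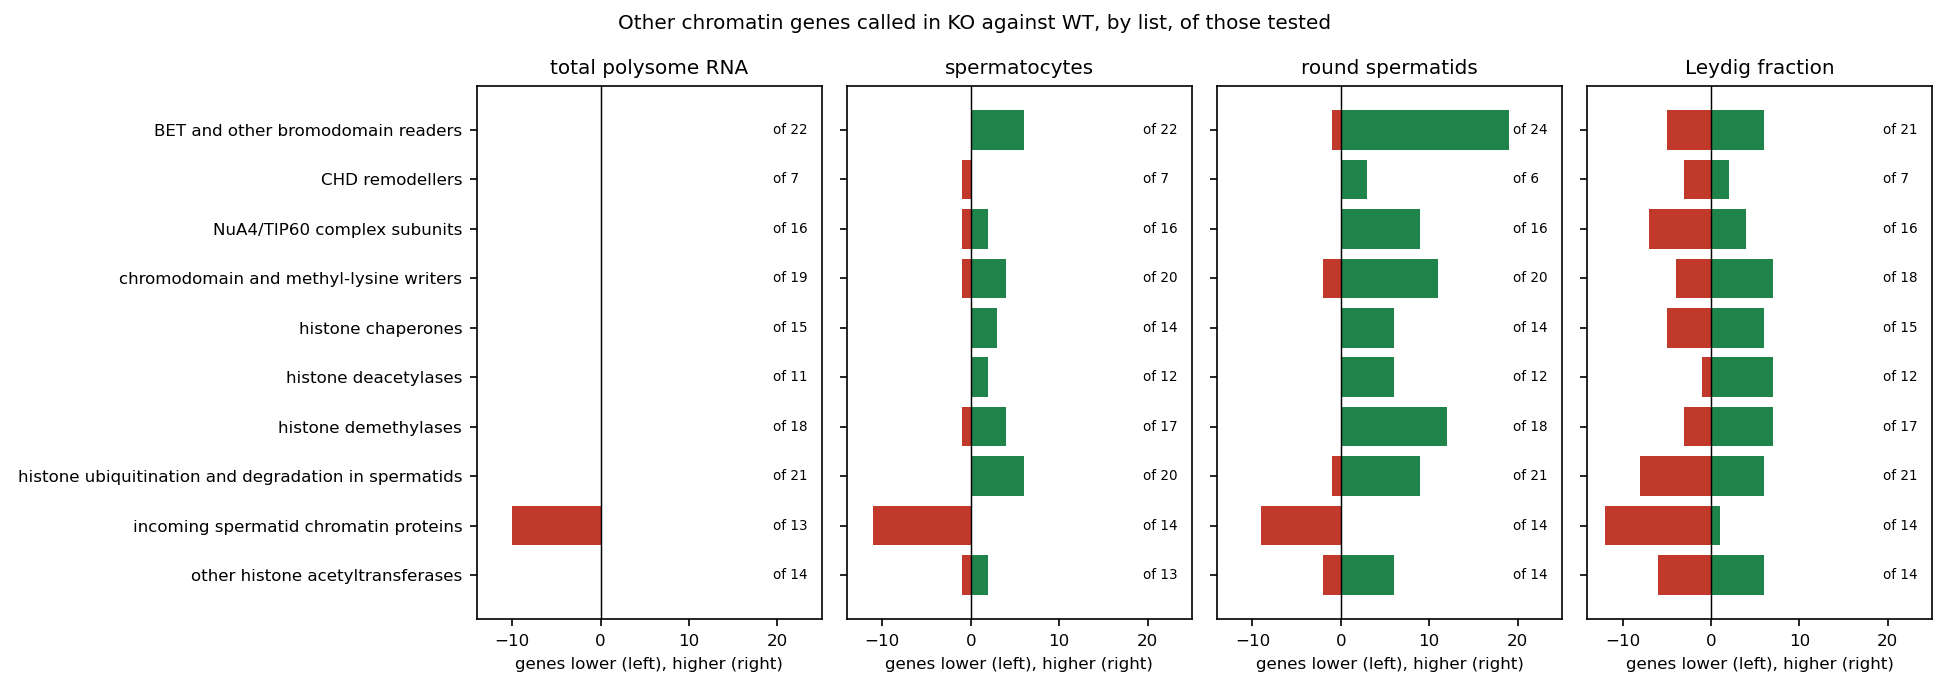
Number of other chromatin genes called higher (green, to the right of 0) or lower (red, to the left) in KO against WT, by list and comparison, with the number tested at the right of each row. In round spermatids the bar of bromodomain readers reaches 19 to the right, and in polysome RNA the only bar is that of incoming spermatid chromatin proteins, 10 to the left.

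Over the 24 arrays that are not IP, the genes whose log2 signal followed a member most closely, among 11009 genes at or above the median signal, were found by Pearson's r as a description; the arrays share tissue, genotype and scaling. Cdyl 1448935_at was followed by Tor1aip1 (0.993), Creb3l4 (0.991) and Akap1 (0.99). Kat5 1433980_at was followed by Mrps31 (0.986), Epc1 by Synj1 (0.975), Kdm3a by Ipo11 (0.973), Chd5 by Wdr90 (0.976) and Brdt 1435502_a_at by C2cd6 (0.979). Brd2 and Epc2 had no gene as close, with Fbl (0.918) and Chml (0.924) first.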

How the data were processed

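RNA from 28 samples in 10 groups was hybridised to 1-colour arrays. The authors deposited linear signal intensities per probe set, made with GCOS, Affymetrix's array software, per the submitters' processing notes; no source used here gives its version or settings. The intensities of 24 arrays averaged 500 after trimming a fraction of 0.02 from each end, and 4 polysome arrays were unscaled (the same means were 168, 54.5, 129.97 and 29.8). Every array was rescaled to 500 here, and log2(signal + 16) was tested, a scale that understates changes of dim probe sets.

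The platform annotation gave 34945 probe sets 1 symbol, 932 several and 9160 none; 64 controls were left out, and a RefSeq list held 34741 of the first and changed 0 symbols. Each comparison was fitted alone with limma 3.58.1 (lmFit, eBayes; R 4.3.3, the data.table package, version 1.17.8) on the 17473 probe sets whose mean log2 value over its arrays reached the median, after a check on simulated data. The fit is two-sided, with Benjamini-Hochberg adjustment at 0.05. The array number limits the precision. Alternatives covered scale, pseudocounts of 1 and 64, filter, probe set per gene, samples in the fit, near-identical arrays, arrays of conflicting description, replicate block and leaving out each array. The arrays averaged as near-identical were 1 with 2 and 3 with 4 in spermatocytes, and 1 with 2 in round spermatids, in each genotype. That leaves fewer values per group.

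The members and lists were chosen with earlier results of these data known. Named genes are all members, Ddx25, up to 3 called genes of smallest adjusted p per list and comparison, and the 3 genes most like each member; the text names a part. Same-numbered arrays deviated together in polysome RNA (correlations 0.409, 0.62 and 0.632) and spermatocytes (0.207, 0.193, 0.184 and 0.241), so pairing there comes from the data, not the labels. Between stages the values were 0.163, 0.143 and 0.118 in WT and 0.142, 0.133 and 0.153 in KO. In both genotypes round spermatid array 3 correlated better with a spermatocyte array of another number, so pairing between stages was only partial. In KO against WT round spermatids 1 value was under 0.1 (0.121, 0.08 and 0.14). Figures were drawn with matplotlib 3.10.9 (Python 3.11.15, pandas 2.3.3, numpy 2.4.6).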

Additional observations from a re-analysis of the deposited data

Results flagged for a closer look

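Of 32 groups of 4 arrays examined for a lone distant array, 3 were picked out; chance picks out about 1 in 20. For Cdyl 1418070_at, KO spermatocytes 4 read 32.5 and the others 44.7 to 45.1. For Brd2 1423502_at, WT spermatocytes 1 read 4117 and the others 4028 to 4039. For Brdt 1444667_at, WT spermatocytes 3 read 100.4 and the others 121 to 125.

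The effect of KO was tested for a difference between the germ cell stages (limma, log2, round spermatids minus spermatocytes), and 6 member probe sets passed. The values were 0.33 (Brd2 1423502_at), 0.58 (Brd2 1437210_a_at), 0.44 (Epc1 1418850_at), 0.73 (Kat5 1433980_at), 0.89 (Kat5 1433981_s_at) and 0.43 (Kdm3a). Of all probe sets tested, 27.4% differed in this direction.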

How the results depend on the processing

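Counts of called members are given here against the main counts. In polysome RNA (1) they became 0 on the deposited scale, 3 in a single fit over all arrays, 2 with the replicate block and 0 without the arrays of conflicting description; in spermatocytes (3), 1 with median centring, 1 with no filter, 1 in a single fit and 0 with near-identical arrays averaged. In round spermatids (8) averaging gave 5, in the Leydig fraction (9) no filter gave 4 and a single fit 1, and in the IP (0) a single fit gave 3. With 1 probe set per gene at most 8 members can be tested, against 14 probe sets in the main fits of the next 3 comparisons, so lower counts there are not lost calls as such. Between stages this setting gave 7 in WT (11) and 7 in KO (12). For WT spermatocytes against the Leydig fraction (11) it gave 6, as did a single fit. For the KO effect in round spermatids minus spermatocytes (6) averaging gave 3; for polysome minus round spermatids (0) median centring, quantile normalization and 1 probe set per gene gave 1 each, a single fit 5 and the conflicting arrays left out 3. With each array left out in turn, counts ran 1 to 2 (spermatocytes), 7 to 8 (round spermatids), 4 to 9 (Leydig fraction), 9 to 11 and 11 to 13 (stages, WT and KO), 8 to 12 and 6 to 9 (WT spermatocytes and round spermatids against the Leydig fraction) and 6 to 8 (difference of KO effects), and did not move in polysome RNA (1). Reversals were Kat5 1433980_at in the Leydig fraction, -0.10 with median centring, and Brdt 1435502_a_at between stages in WT, -0.081 under quantile normalization. The causes were not tested. Kat5, Epc1 1418850_at, Kdm3a and Cdyl 1448935_at in round spermatids kept their calls under every alternative run. The replicate block gave 2 calls in polysome RNA, 3 in spermatocytes, 8 in round spermatids (whose numbers did not all pair) and 7 in the Leydig fraction; beyond the calls named in the text it called Brdt 1444667_at in the difference of KO effects (0.49) and lost Kat5 1433980_at and Epc1 1418850_at in the Leydig fraction. With 2 to 4 arrays a group, and 2 or 3 probe sets that disagree for Brdt, Epc1 and Cdyl, small differences cannot be resolved; dim probe sets (Cdyl 1418070_at, Brdt 1444667_at, Epc1 1458315_at) are the least reliable.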
